A study of Mus musculus with 17 samples.

Results

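Genes that mark or control the stem cells of the intestinal crypt were followed in the mouse colon. The group holds 10 genes, Lgr5, Ascl2, Smoc2, Axin2, Sox9, Lrig1, Rnf43, Znrf3, Cdca7 and Myc, chosen by symbol from the 23719 entries of a table of raw RNA-seq counts. All 10 were found and all 10 were among the 14146 genes that passed edgeR's filter on low counts. The samples were colons of male C57BL/6 mice aged 32 to 34 weeks, 9 in the Control group, which drank water, and 8 in the GWI group, a model of Gulf War illness. GWI mice had taken up pyridostigmine bromide, which blocks acetylcholinesterase reversibly, from the drinking water at 2 mg/kg for 7 days and then recovered for 21 days, and tissue was collected on day 30. The comparison asks whether the colon still differed after exposure had ended. Total counts per mouse lay between 16744096 and 20741212 in Control colons and between 16293537 and 18389686 in GWI colons.

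The colonic epithelium is renewed from stem cells at the base of the crypts, which divide and send daughter cells upward to become absorptive colonocytes, mucus-secreting goblet cells and hormone-secreting enteroendocrine cells. Wnt proteins and R-spondins from cells around the crypt base keep the stem cells in place: Wnt stabilises β-catenin, which switches on target genes with TCF factors, while R-spondins bind Lgr receptors and remove Rnf43 and Znrf3, the ligases that would otherwise clear Wnt receptors from the cell surface. BMP signals, stronger toward the lumen, oppose this programme.

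Some libraries stood apart before any comparison was made. Controls 6 and 7 held small intestinal transcripts that were nearly absent from the other colons. Defa24, a defensin of Paneth cells, had 1364 counts in Control 6 and 2174 in Control 7 against 0 to 12 in the other mice. Olfm4, a stem cell gene of the mouse small intestine that the mouse colon hardly expresses, showed the same split, with 243 and 203 counts in Controls 6 and 7 and 0 to 5 in the other mice, and it did not pass the filter. The summed level of the 10 small intestinal genes listed, 577 to 2392 CPM in Control and 379 to 969 CPM in GWI colons, was mostly Fabp2, which the colon expresses too, and was highest in Control 9. Control 1 and GWI 5 had the highest summed levels of distal colon Hox genes, 129 and 88.1 CPM (counts scaled to the library size, here always after TMM correction), with a GWI median of 7.70 CPM. In Control 9 the 10 most abundant genes took 23.1% of the counts. The mean log2 CPM of 12 epithelial genes minus that of 10 smooth muscle genes also varied. This score ran from -1.34 in Control 6 to 1.15 in Control 8, and from 0.43 in GWI 5 to 1.88 in GWI 3, and 6 of the 8 GWI colons had more epithelial relative to muscle RNA than any Control colon. In bulk tissue, fewer cells of a type and less RNA per cell cannot be told apart.

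None of the 10 members passed an adjusted p of 0.05 in the quasi-likelihood test of edgeR, Benjamini-Hochberg adjusted over all tested genes, so 0 were called higher and 0 lower in GWI colons. Among all tested genes 26.8% were called, 13.4% higher and 13.5% lower. At an unadjusted p under 0.05, 3 members passed, Rnf43 on the higher side and Smoc2 and Myc on the lower side, where 41.4% of all tested genes did. The DESeq2 Wald test called 1 member, Smoc2, and 32.6% of all tested genes. With sample quality weights limma-voom called 4 members, Rnf43 and Znrf3 as higher and Smoc2 and Myc as lower, and 57.2% of all tested genes. By the threshold in the study's methods, taken as an unadjusted p under 0.05 with an absolute log2 fold change over 1 and applied here to the edgeR fit in place of the Wald test of the methods, 0 members passed, against 2.42% of all tested genes. The members' median log2 fold change was 0.04, with 6 positive and 4 negative values, and that of all tested genes was -0.06.

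**Figure D1:**
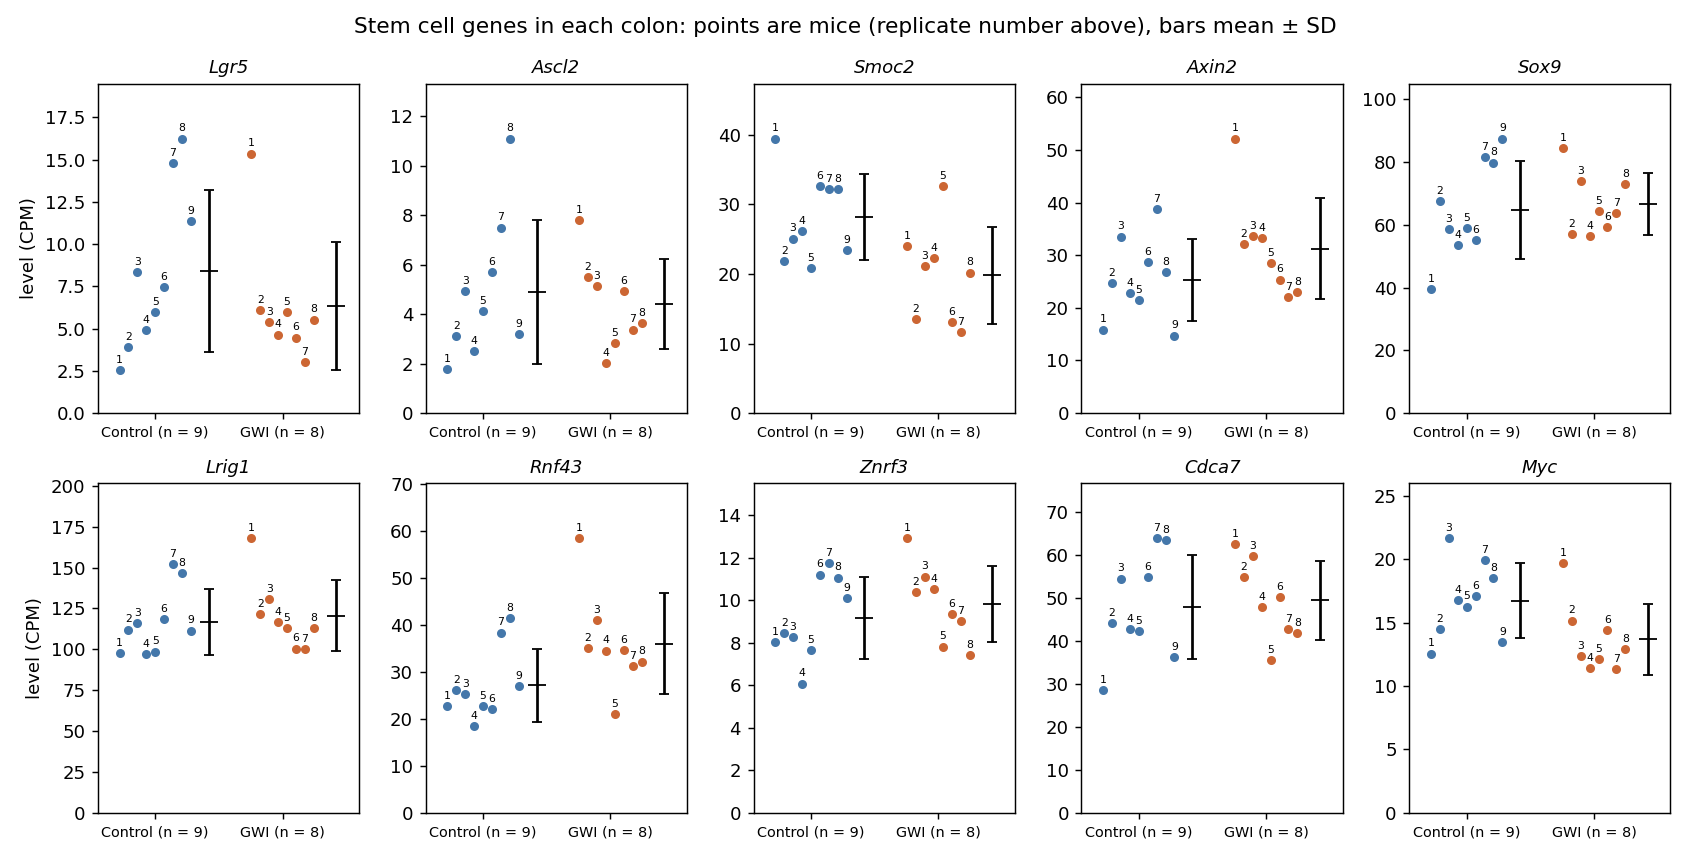
Level of each member in every mouse in CPM on a linear axis, with 9 Control and 8 GWI colons as points labelled by replicate number and the mean ± SD as bars. GWI 1 is the highest GWI mouse for every member except Smoc2, while Control 1 has the lowest Lgr5 level, 2.53 CPM, and the highest Smoc2 level, 39.5 CPM.

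Per kilobase of annotated exon, the members' levels in Control colons ran from Lrig1 at 20.9 ± 3.64 CPM per kb (SD, n = 9) down to Lgr5 at 0.818 ± 0.468 CPM per kb. Sox9 (15.6) and Cdca7 (14.95) followed Lrig1, then Myc (6.17), Axin2 (4.58), Rnf43 (4.14), Smoc2 (4.06), Ascl2 (3.01) and Znrf3 (1.16), all as mean CPM per kb. Neighbours in this order overlapped within 1 SD, except that Cdca7 and every gene above it stood clear of Myc. In GWI colons the order was the same at both ends, with Lrig1 at 21.6 ± 3.89 CPM per kb (SD, n = 8) and Lgr5 at 0.615 ± 0.369 CPM per kb, but Axin2 (5.67) and Rnf43 (5.49) stood ahead of Myc (5.03), and these 3 overlapped within 1 SD. The most specific stem cell markers, Lgr5 and Ascl2, were thus among the scarcer members per length, and the broadly expressed Lrig1 and Sox9 the most abundant.

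Lgr5 encodes the R-spondin receptor that defines the cycling stem cell of the crypt base (ENSMUSG00000020140.15, GRCm38 chromosome 10, 115450311 to 115587780, minus strand). It had 2.53 CPM in the lowest, 7.44 in the median and 16.2 in the highest Control colon, and 3.01, 5.45 and 15.4 CPM in the lowest, median and highest GWI colon. Controls 7 and 8 and GWI 1 formed the top of the range, and 7 of the 8 GWI mice lay below the Control median, yet each GWI mouse lay inside the Control range. The log2 fold change was -0.41 (standard error 0.36, 95% interval -1.11 to 0.29, edgeR quasi-likelihood test, Benjamini-Hochberg adjusted p = 0.398). Without GWI 1 it was -0.74, with an edgeR Benjamini-Hochberg adjusted p of 0.102, and without Control 8 it was -0.23. The interval thus spans both a fall of more than 1 log2 unit and a modest gain.

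Ascl2 encodes the transcription factor that maintains Lgr5-positive cells (ENSMUSG00000009248.6, chromosome 7, 142966829 to 142969264, minus strand). Its lowest, median and highest levels were 1.77, 4.12 and 11.1 CPM in Control colons and 2.01, 4.28 and 7.81 CPM in GWI colons. Control 8 stood highest and Control 1 lowest, and all 8 GWI mice lay inside the Control range. The log2 fold change was -0.15 (standard error 0.33, 95% interval -0.80 to 0.50, edgeR quasi-likelihood test, Benjamini-Hochberg adjusted p = 0.750). Its sign was not stable, with 0.10 without Control 8, 0.05 with a score of small intestinal genes in the fit and 0.00 without Controls 6 and 7. For both Lgr5 and Ascl2 the spread inside the Control group was wide, with the highest mouse at 6.43 times the lowest for Lgr5 and 6.28 times for Ascl2.

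Smoc2, which encodes a secreted matrix protein and is part of the Lgr5 stem cell signature, was the member with the most negative fold change (ENSMUSG00000023886.10, chromosome 17, 14279506 to 14404790, plus strand). Control colons had 20.9 CPM at the lowest, 26.2 at the median and 39.5 at the highest, and GWI colons had 11.6, 20.7 and 32.7 CPM. In 4 of the 8 GWI mice Smoc2 lay below every Control mouse, GWI 2, 6 and 7 by the widest gap, whereas GWI 5 reached the upper part of the Control range. The log2 fold change was -0.51 (standard error 0.19, 95% interval -0.88 to -0.14, edgeR quasi-likelihood test, Benjamini-Hochberg adjusted p = 0.0545). The call turned on small changes of method and on single libraries. The adjusted p was 0.0303 by the DESeq2 Wald test and 0.0140 by edgeR without GWI 5 (log2 fold change -0.65), and in edgeR fits it also passed 0.05 without Control 2 (0.0480), Control 5 (0.0478) or Control 9 (0.0485), each Benjamini-Hochberg adjusted. It was 0.230 by edgeR without Controls 1, 6 and 7, where the log2 fold change was -0.33. In Control 1 Smoc2 went apart from other members, this mouse being the lowest Control mouse for Lgr5, Ascl2, Sox9, Cdca7 and Myc and the highest for Smoc2.

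Axin2, Rnf43 and Znrf3 are switched on by Wnt signalling and restrain it in turn, Axin2 inside the complex that degrades β-catenin and the other 2 at the receptors. Rnf43 had the most positive fold change among the members (ENSMUSG00000034177.15, chromosome 11, 87662722 to 87735539, plus strand). It had 18.4, 25.2 and 41.5 CPM in the lowest, median and highest Control colon and 20.9, 34.6 and 58.4 CPM in the lowest, median and highest GWI colon. The groups overlapped, GWI 1 stood above every Control mouse, and 7 of the 8 GWI mice exceeded all Control mice but Controls 7 and 8, the exception being GWI 5. The log2 fold change was 0.41 (standard error 0.18, 95% interval 0.05 to 0.77, edgeR quasi-likelihood test, Benjamini-Hochberg adjusted p = 0.0997). Leaving out Control 8 or GWI 5 brought the edgeR Benjamini-Hochberg adjusted p to 0.0395 or 0.0410, and leaving out GWI 1 brought it to 0.227.

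Axin2 (ENSMUSG00000000142.15, chromosome 11, 108920349 to 108950783, plus strand) had 14.7, 24.7 and 38.7 CPM in the lowest, median and highest Control colon and 21.98, 30.3 and 52.2 CPM in GWI colons. GWI 1 alone lay above the Control range, and Controls 1, 5 and 9 lay below every GWI mouse. The log2 fold change was 0.31 (standard error 0.20, 95% interval -0.08 to 0.69, edgeR quasi-likelihood test, Benjamini-Hochberg adjusted p = 0.245), and without GWI 1 it was 0.16. Znrf3, the paralogue of Rnf43, had 6.07 to 11.8 CPM in Control and 7.43 to 12.9 CPM in GWI colons, with a log2 fold change of 0.10 (95% interval -0.19 to 0.38). It was called higher by limma-voom, with a log2 fold change of 0.32 and a Benjamini-Hochberg adjusted p of 0.0302, and by no other method run. Lgr5, itself a Wnt target, and these 3 feedback genes therefore had fold changes of opposite sign, none of them past the main test, and Rnf43 and Znrf3 turned negative once a score of tissue composition was in the fit.

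Myc encodes a growth-promoting transcription factor downstream of Wnt (ENSMUSG00000022346.15, chromosome 15, 61985391 to 61990374, plus strand). Its lowest, median and highest levels were 12.6, 16.8 and 21.7 CPM in Control colons and 11.4, 12.6 and 19.7 CPM in GWI colons. In 4 GWI mice Myc lay below every Control mouse, and GWI 1 lay far above the other GWI mice. The log2 fold change was -0.29 (standard error 0.13, 95% interval -0.55 to -0.04, edgeR quasi-likelihood test, Benjamini-Hochberg adjusted p = 0.101). Without GWI 1 it was -0.39, with an edgeR Benjamini-Hochberg adjusted p of 0.0279.

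The remaining members had fold changes close to 0. Sox9, a transcription factor of crypt progenitors that enteric glia also express, had 39.5 to 87.5 CPM in Control and 56.3 to 84.5 CPM in GWI colons, a log2 fold change of 0.04 (95% interval -0.23 to 0.31). Lrig1, which encodes a brake on ErbB receptors and marks a wide set of crypt base cells, had 96.9 to 152 CPM in Control and 100.1 to 168 CPM in GWI colons, a log2 fold change of 0.05 (95% interval -0.18 to 0.28). Cdca7, a Myc-responsive gene of dividing progenitors that belongs to the stem cell signature, had 28.5 to 63.9 CPM in Control and 35.6 to 62.6 CPM in GWI colons, also with a log2 fold change of 0.05 (95% interval -0.25 to 0.35). Their intervals exclude a change of 1 log2 unit in either direction, which that of Lgr5 does not. The exons of Axin2 overlap those of Gm11670 on the opposite strand, and those of Lrig1 overlap Slc25a26, so their counts hold some uncertainty if the counting ignored strand.

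The balance of epithelium and muscle moved with the groups. In edgeR's test 13.4% of all tested genes were called higher and 13.5% lower. Higher and lower calls over all genes numbered 1889 and 1903 there, 2171 and 2444 by DESeq2, and 3911 and 4180 by limma-voom. In other edgeR fits they numbered 1214 and 2992 with upper-quartile factors and 1530 and 1851 with library size alone. They numbered 1482 and 1353 with a small intestinal score, and 2171 and 1943 without Controls 1, 6 and 7. Of the 12 epithelial genes 6 were called higher in GWI colons and 0 lower in edgeR's test, at a median of 0.39 in log2 fold change, and their summed level was 10510 to 19462 CPM in Control and 14564 to 20101 CPM in GWI colons, Krt8 being the most abundant. The epithelial count was 3 of 12 with the epithelium minus muscle score in the fit, 4 with upper-quartile factors, library size alone or a small intestinal score, 8 by the DESeq2 Wald test and 9 by limma-voom. Of the 10 smooth muscle genes 7 were called lower and 0 higher, with a median of -0.91, and their summed level was 3690 to 23923 CPM in Control and 3658 to 11832 CPM in GWI colons, Myh11 being the most abundant. The muscle count moved with the samples and the tool. It was 2 of 10 without Controls 1, 6 and 7 (median -0.64) and 2 with the small intestinal score. It was 9 by the DESeq2 Wald test and 10 by limma-voom. Once the epithelium minus muscle score, which these genes help form, was in the fit, 0 were called lower. In that fit 1, Lmod1 (0.55), was called higher, and the list's median was 0.54. With the epithelium minus muscle score as a further term in the edgeR fit, 0 members were called, against 26.5% of all tested genes (12.2% higher and 14.3% lower), and several estimates shifted. Rnf43 went from 0.41 to -0.07, Lgr5 from -0.41 to -0.83 and Ascl2 from -0.15 to -0.61 in log2 fold change, and Smoc2 from -0.51 to -0.25, while Axin2 (0.31) and Myc (-0.30) hardly moved. Sox9, Lrig1, Cdca7 and Znrf3 took small negative values, from -0.24 for Sox9 to -0.09 for Lrig1. The members' median became -0.19, that of all genes 0.04. The edgeR Benjamini-Hochberg adjusted p in this fit was 0.164 for Lgr5, 0.279 for Ascl2 and 0.452 for Smoc2. The score differs between the groups, so its part and that of the exposure cannot be told apart in this design.

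**Figure D2:**
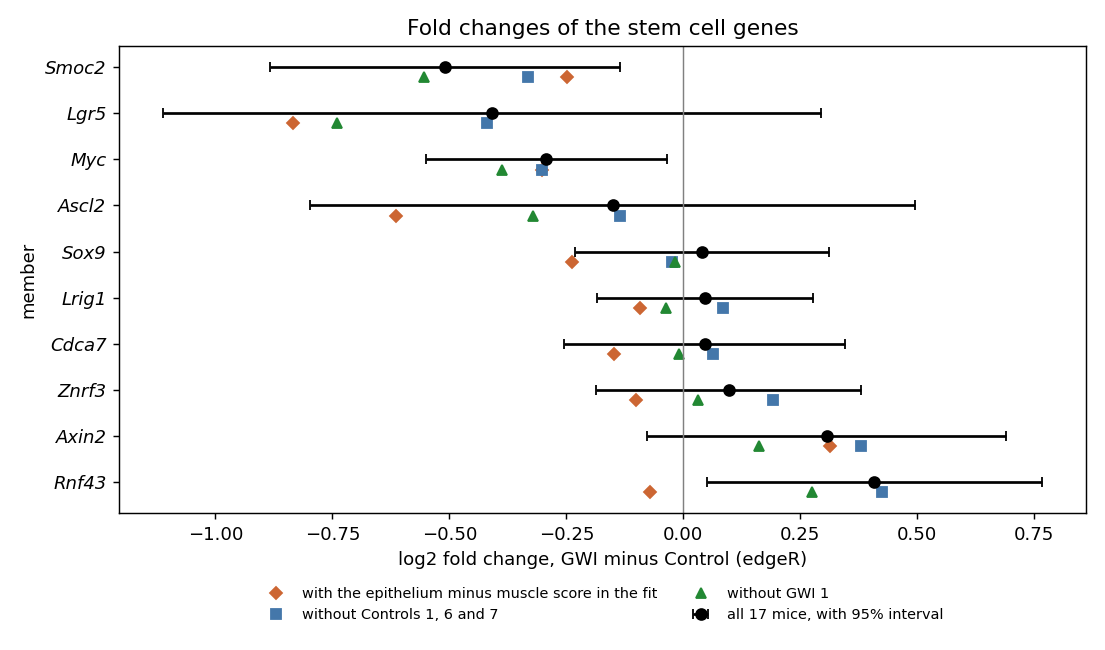
Log2 fold change of each member, GWI minus Control, from edgeR with all 17 mice (black, with 95% intervals), with the epithelium minus muscle score in the fit, without Controls 1, 6 and 7, and without GWI 1. The estimates run from -0.51 for Smoc2 to 0.41 for Rnf43, and with the score Rnf43 falls on the other side of zero at -0.07 while Lgr5 lies at -0.83.

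Each member was also compared without the libraries that stood apart. Without Controls 6 and 7, the colons with small intestinal markers, the log2 fold change was -0.27 for Lgr5, 0.00 for Ascl2, -0.45 for Smoc2, 0.45 for Axin2, 0.46 for Rnf43 and -0.25 for Myc, and 0 members were called, where 19.6% of all genes tested in that fit were called. Without Control 1 and GWI 5, the pair with high distal Hox genes, a choice made after seeing the data, it was -0.52 for Lgr5, -0.58 for Smoc2, 0.46 for Rnf43 and -0.31 for Myc, and Smoc2 was called lower (edgeR, Benjamini-Hochberg adjusted p = 0.0152), where 34.9% of all genes tested in that fit were called. GWI 1 was among the 3 highest of all 17 mice for 9 of the 10 members and Control 7 for 8, while Control 1 was among the 3 lowest for 6.

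Whether the members varied together was read inside each group, as the correlation of each of the other 9 members with Lgr5 in log2 CPM, 18 relations in all. In Control colons (n = 9), Pearson's r passed a Benjamini-Hochberg adjusted p of 0.05 by exact permutation for 5 members, Ascl2, Sox9, Lrig1, Rnf43 and Cdca7. Ascl2 followed Lgr5 most closely, with r = 0.86 (exact permutation p = 0.00364, adjusted 0.0308) and Spearman's rho = 0.87 (exact permutation p = 0.00451, adjusted 0.0812). It kept r = 0.67 without Controls 1 and 8, the mice farthest from the Lgr5 median. Lrig1 had r = 0.82 (exact permutation p = 0.00684, adjusted 0.0308), rho = 0.75 (exact permutation p = 0.0255, adjusted 0.152) and r = 0.73 without those mice. Sox9 had r = 0.83 (exact permutation p = 0.00617, adjusted 0.0308), rho = 0.72 (exact permutation p = 0.0369, adjusted 0.152) and r = 0.64 without them. Rnf43 had r = 0.74 (exact permutation p = 0.0215, adjusted 0.0483), rho = 0.72 (exact permutation p = 0.0369, adjusted 0.152) and r = 0.71 without them. Cdca7 had r = 0.75 (exact permutation p = 0.0201, adjusted 0.0483), rho = 0.65 (exact permutation p = 0.0666, adjusted 0.152) and r = 0.41 without them, so it rests partly on those mice. Smoc2 had r = -0.0029 and rho = 0.05 in Control colons (exact permutation p = 0.994 and 0.912), and r = 0.52 without Controls 1 and 8.

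In GWI colons (n = 8), 3 members passed by Pearson's r. Lrig1 had r = 0.91 (exact permutation p = 0.00613, adjusted 0.0308) and rho = 0.74 (exact permutation p = 0.0458, adjusted 0.152), Axin2 had r = 0.86 (exact permutation p = 0.0137, adjusted 0.0446) and rho = 0.57 (exact permutation p = 0.151, adjusted 0.247), and Myc had r = 0.86 (exact permutation p = 0.0149, adjusted 0.0446) and rho = 0.69 (exact permutation p = 0.0694, adjusted 0.152). These relations rest on GWI 1 and GWI 7, the highest and the lowest GWI mouse for Lgr5. Without both, r was 0.48 for Lrig1, 0.10 for Axin2 and 0.17 for Myc. Ascl2 had r = 0.62 (exact permutation p = 0.0914, adjusted 0.137) and rho = 0.55 (exact permutation p = 0.171, adjusted 0.256) in GWI colons, and r = 0.22 without both mice. Smoc2 had r = 0.52 (exact permutation p = 0.178, adjusted 0.214) and rho = 0.62 (exact permutation p = 0.115, adjusted 0.207) in GWI colons, and r = 0.28 without both mice. By Spearman's rho 0 of the 18 relations passed the Benjamini-Hochberg adjustment in exact permutation, while 4 in Control and 1 in GWI colons had an unadjusted exact permutation p under 0.05. Whether a relation differed between the groups was not tested, nor was the part of the libraries' epithelial and muscle content in it.

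**Figure D3:**
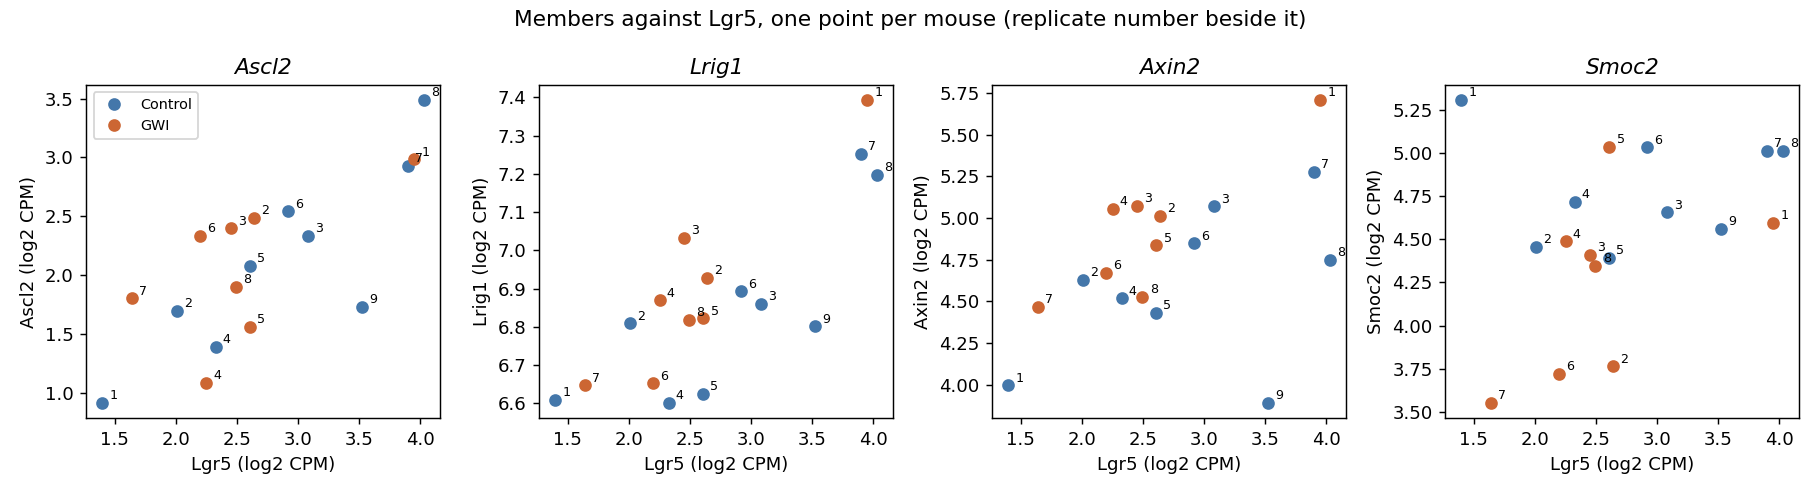
Ascl2, Lrig1, Axin2 and Smoc2 against Lgr5 in log2 CPM (prior count 2), with 1 point per mouse, labelled by replicate number and coloured by group. Ascl2 has r = 0.86 with Lgr5 in Control colons (n = 9) and 0.62 in GWI colons (n = 8), Smoc2 has r = -0.0029 in Control and 0.52 in GWI colons, and GWI 1 lies apart from the other GWI mice on the Lgr5 axis.

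Among all 14146 tested genes, the 5 whose lower value of the 2 within-group r with Lgr5 was highest were Rnf150 (0.93), Runx1 (0.93), Noc3l (0.92), Zfp951 (0.91) and Sgo1 (0.91), over 9 Control and 8 GWI mice and given as a description. Lrig1, at 0.82, ranked highest of the members on this measure, in place 37. For Ascl2 the 5 genes were Nup155 (0.89), Kansl2 (0.85), Pappa2 (0.84), Gcg (0.83) and Nxf7 (0.83), and among the members Cdca7 (0.73) and Myc (0.73) came nearest.

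Other genes of the crypt base and of its signals were counted in the same edgeR fit. There 13.4% of all tested genes were called higher and 13.5% lower. Of 9 tested crypt base genes outside the members, 2 were called higher and 0 lower, Ephb2, an ephrin receptor that positions cells along the crypt (log2 fold change 0.62), and Prom1, a membrane protein of crypt base cells (0.64). With the epithelium minus muscle score in the fit neither was called (0.30 and 0.45), and Slc12a2 was called lower (-1.04). Rgmb, at -0.34, was just outside the threshold in the main test. It was called lower by the DESeq2 Wald test and limma-voom, and by edgeR with DESeq2 size factors, upper-quartile factors or a replicate block. Of 8 genes of reserve or regenerating stem cells 1 was called, Bmi1, as lower (-0.39). With the score Bmi1 was not called (-0.44), Hopx was called lower (-0.65) and Cyr61 higher (0.78), and limma-voom, which called 57.2% of all tested genes, called 3 of the 8 lower and 1 higher. Of 7 further Wnt target genes 0 were called in edgeR's main test, with 2 at an unadjusted p under 0.05, Nkd1 (-0.66) and Lef1 (-0.80). The DESeq2 Wald test, limma-voom and edgeR with upper-quartile factors each called 1 as lower, Nkd1.

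Of 15 genes of Wnt signal transduction 13 had positive fold changes and of 15 genes of niche ligands and stroma 14 had negative ones, where 6340 of all tested genes had positive and 7806 negative values. Of the transduction genes 5 were called higher and 0 lower in edgeR's test, the co-receptors Lrp5 (log2 fold change 0.72) and Lrp6 (0.52), the receptor Fzd5 (0.37), and Apc (0.27) and Gsk3b (0.23) of the complex that degrades β-catenin. Lrp6 had 84.2 to 144 CPM in Control and 118 to 169 CPM in GWI colons, with 7 of the 8 GWI values above the whole Control range. Lrp5, Lrp6 and Gsk3b were also called with the score in the fit, and 2 of the 15 genes were called with upper-quartile factors. Over all genes the upper-quartile fit called 1214 higher and 2992 lower. Of the 15 niche genes 2 were called lower and 0 higher in edgeR's main test, a share close to that of all tested genes. In the main test 13.4% of all tested genes were called higher and 13.5% lower. The 2 niche genes were Rspo3 (-1.17), the R-spondin that binds Lgr5 and its relatives, and Porcn (-0.54), needed for Wnt secretion. Rspo3 had 2.96 to 10.7 CPM in Control and 1.41 to 5.99 CPM in GWI colons, with GWI 5 the highest GWI mouse. With the score in the fit Rspo3 was at -0.21 and Porcn at 0.0105, neither was called, and the list's median went from -0.36 to 0.0105, while Wls (-0.59) and Gli1 (-1.04) were called lower and Nog (1.02) higher. Of 10 genes of the BMP pathway, Id3 (0.54), Smad6 (0.68) and Smad7 (0.69) were called higher and Id2 (-0.49) lower, all 4 also with the score in the fit.

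Among cell division genes, 2 of 20 were called lower in edgeR's test, where 13.5% of all tested genes were called lower. They were Birc5 (-0.54) and Tyms (-0.52), and the list's median was -0.15. With the epithelium minus muscle score in the fit 8 of the 20 were called lower and 0 higher, with a median of -0.54, where 14.3% of all tested genes were called lower. None of the 6 genes of deep crypt secretory cells, the neighbours of the colonic stem cell, was called by edgeR, with Spink4 alone at an unadjusted p under 0.05. DESeq2 called 0 of these 6, and limma-voom called 2 higher. With the score in the fit edgeR called 2 lower, and with upper-quartile factors it called 1 lower, Spink4. None of the 9 genes of differentiated colonocytes was called by edgeR (median 0.15, Ceacam20 alone at an unadjusted p under 0.05), while DESeq2 called 1 and limma-voom 5 as higher, and edgeR called 5 higher when Controls 1, 6 and 7 were left out (median 0.75). With the score in the fit their median was 0.98 and 1, Muc3, was called higher. Of 8 goblet cell genes 1 was called higher, Muc2 (0.51), which was not called with the score (0.33), where Spdef and Agr2 were called lower, and DESeq2 called 3 and limma-voom 4 of the 8 higher. Of 6 enteroendocrine genes 0 were called by edgeR, DESeq2 or limma-voom, with 0 at an unadjusted p under 0.05 in edgeR. Cdh19, a cadherin gene of enteric glia, was called lower (-1.29), and so were 2 of 6 fibroblast genes, Dcn (-0.75) and Dpt (-0.76). With the score neither Dcn (-0.059) nor Dpt (0.017) was called, and 2 other fibroblast genes, Col1a1 and Col1a2, were called higher. Of the genes of interstitial cells of Cajal (3), lymphocytes (4), small intestine (2) and distal colon (4) that were tested, 0 were called in edgeR's main test. There 2, Etv1 and Hoxd11, were at an unadjusted p under 0.05. DESeq2, limma-voom and edgeR with upper-quartile factors each called 1 gene of Cajal cells, Etv1, and 1 of distal colon, Hoxd11, as lower. Other edgeR fits called Etv1 lower with the small intestinal score and Hoxd11 lower without Controls 1, 6 and 7.

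Since several members varied together in Control colons, the 250 bases before the transcription start were searched in the RefSeq promoter table of GRCm38.p6, which holds 6 promoters of 5 members, Ascl2, Axin2, Lrig1, Rnf43 and Cdca7. The letters of a TCF/LEF core, CTTTGAT on either strand, were in 0 of the 6 and in 3.21% of the 32851 promoters of the table, and the form CTTTGTT was in 0 of the 6 and in 5.03%. CACGTG, the E-box that Myc binds, was also in 0 of the 6 and in 6.02% of all promoters. This says only that these letters are not in these windows.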

How the data were processed

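Colon RNA of 17 mice was sequenced. The authors trimmed reads with Trimmomatic 0.36, mapped them to GRCm38 with STAR 2.5.2b and deposited the raw count of unique hits per gene symbol in each mouse, without normalization, and their notes name DESeq2. The annotation release and the strand setting are not stated. Sample names have parts in common that neither the labels nor the methods define. They were not modelled, so the tests and intervals take the mice as independent. Intervals reflect the spread between mice, and without molecular identifiers counts are not independent molecules.

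After filterByExpr and TMM scaling, the groups were compared with the robust quasi-likelihood fit of edgeR 4.0.16 in R 4.3.3, with the group as the only term and Benjamini-Hochberg adjustment over 14146 genes. A gene was called at an adjusted p under 0.05. Standard errors are the fold change over the square root of F, and 95% intervals are the estimate ± 1.96 standard errors. This normal multiplier ignores the finite degrees of freedom of the F test. The intervals are therefore somewhat narrower than the test, and their coverage may be below 95%. CPM was computed here from the deposited counts, and log2 values use a prior count of 2. Exon lengths and positions are those of GENCODE M21. Correlations were tested by exact permutation of pairings, two-sided, with 18 relations per measure (scipy 1.17.1).

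The members and gene lists were chosen with earlier results of these data known. Genes named are all members, companion genes that were called, define a cell type or are extremes of their list, and the 5 most like Lgr5 or Ascl2. Spink4, Ceacam20, Nkd1, Etv1, Hoxd11, Rgmb and genes called only in an alternative fit were named after their values were seen. Alternatives were other scalings, DESeq2 1.42.0, voom of limma 3.58.1, other filters, no robust estimation, 2 covariates, a replicate block and leaving out mice.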

Additional observations from a re-analysis of the deposited data

Results flagged for a closer look

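In 4 of the 20 combinations of member and group, the highest mouse stood farther from its neighbours than Dixon's 95% critical value allows, and chance gives about 1 in 20. All 4 are the same mouse, GWI 1. It had 15.4 CPM of Lgr5 where the next GWI mouse had 6.12, 52.2 CPM of Axin2 where the next had 33.6, 168 CPM of Lrig1 where the next had 131, and 19.7 CPM of Myc where the next had 15.2. The 4 genes come from 1 library, so they are not independent. For Lgr5 and Myc, GWI 1 was still inside the Control range, and for Axin2 and Lrig1 it was above it.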

How the results depend on the processing

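Each member was refitted under 31 alternatives, 310 fits in all, of which 17 gave a call and 7 of those left out 1 mouse. Lgr5, Ascl2, Axin2, Sox9, Lrig1 and Cdca7 were called in none. Against 0 in the main test, members called lower numbered 1 with DESeq2 size factors, 2 with upper-quartile factors, 1 with the DESeq2 Wald test, 2 with limma-voom, 1 with at least 10 counts in every mouse, and 1 without Control 1 and GWI 5 (chosen after seeing the data), and members called higher numbered 2 with limma-voom. Leaving out 1 mouse at a time gave 0 to 1 in either direction: 1 lower without Control 2, 5 or 9, GWI 1 or GWI 5, and 1 higher without Control 8 or GWI 5. Smoc2 had adjusted p-values from 0.0140 to 0.452, Rnf43 from 0.00123 to 0.816, Myc from 0.00585 to 0.240 and Lgr5 from 0.102 to 0.730. The sign was kept in every alternative by Lgr5, Smoc2, Axin2 and Myc.

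Over all genes, 1889 were called higher and 1903 lower. Upper-quartile factors gave 1214 and 2992, so that 28.9% of calls were higher in place of 49.8%, and moved the median log2 fold change of all genes from -0.06 to -0.15. Limma-voom gave 3911 and 4180, and the threshold of the study's methods 92 and 250. Leaving out 1 mouse gave 1472 to 2523 higher and 1309 to 2295 lower. With the epithelium minus muscle score Porcn reversed to 0.0105 and Dpt to 0.017, and so did 6 of the 7 called smooth muscle genes (Acta2, Myh11, Synpo2, Lmod1, Smtn and Mylk), which are part of that score. By Spearman's rho, members that passed with Lgr5 numbered 0 in each group in place of 5 and 3. The causes were not tested.

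With a replicate block, 0 members and 3 of 10 smooth muscle genes were called, and 1415 genes were higher and 826 lower. The numbers do not pair the mice: same-numbered libraries correlated at -0.506 to 0.115, over 0.1 in 1 of 8 pairs, so the block removes 8 degrees of freedom for a shared number only. Counts were lowest for Lgr5 and Ascl2 among the members, with 40 and 28 in their lowest mouse. What depth adds to their spread between mice was not tested.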
